A study of Mus musculus with 12 samples.

Results

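Interferon-stimulated genes are the output of the interferon response, and 9 of them were followed here: *Isg15*, *Ifit1*, *Ifit2*, *Ifit3*, *Oasl2*, *Irf9*, *Bst2*, *Usp18* and *Rsad2*. They were taken by symbol from the 20620 genes of the counts table, where each had 1 row. The libraries came from whole testes of C57BL/6 mice at postnatal day 16. The controls were *Mael*+/- and carried 1 disrupted copy of *Maelstrom*, and the other group was *Mael*-/- and lacked the gene product, which germ cells need for the piRNAs that repress transposons. Total RNA and ribosome footprints were sequenced from 3 biological replicates of each genotype, 12 libraries in all, and the numbers of pups behind a replicate are not given in the sources used here. No wild-type testes and no interferon-treated testes were among the samples, so a level seen in both genotypes has no further reference in these data.

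Interferons are secreted when a cell senses foreign or misplaced nucleic acid. They bind receptors on the surface, the kinases Jak1 and Tyk2 are activated, and a complex that holds Stat2 and Irf9 forms and binds interferon-stimulated response elements in promoters. The genes so switched on restrict the RNA, protein synthesis and release of viruses, and several of the same products are known to restrain retrotransposons. In the testis, Sertoli cells, Leydig cells and resident macrophages are known to be able to mount this response. The question that the comparison addresses is whether the response genes differ in RNA or in translation in testes whose germ cells have lost repression of the retrotransposon LINE-1.

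The members lie on 7 chromosomes (mouse GRCm38, the build that the files name mm10). *Ifit2*, *Ifit3* and *Ifit1* are neighbours on the plus strand of chromosome 19, at chr19:34550550-34576534, chr19:34583119-34588982 and chr19:34640889-34650009. *Isg15* is at chr4:156199424-156200818 on the minus strand, *Oasl2* at chr5:114896926-114912245 on the plus strand, *Usp18* at chr6:121245906-121270917 on the plus strand and *Bst2* at chr8:71534255-71537472 on the minus strand. *Rsad2* is at chr12:26442743-26456452 on the minus strand and *Irf9* at chr14:55603985-55610030 on the plus strand. In the annotation, *Ifit1* lies wholly within the span of *Ifit1bl1*, and *Isg15* and *Usp18* each overlap a long non-coding RNA gene.

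Promoter windows of RefSeq (GRCm38.p6), from 250 bases before to 50 after a start site, were found for 8 of the 9 members, all but *Usp18*. They were searched on both strands for the core of the interferon-stimulated response element, written GAAA, then any 2 bases, then GAAA. It was present for 5 of the 8 members, against 3.99% of the 27025 genes in the promoter table. The stretches that hold it are shown because the core is known as the element through which interferon acts, and most members with a window held it. They are read 5′ to 3′ on the strand of the gene, capitals mark the cores, and a core written TTTC lies on the opposite strand.
Isg15, chr4:156200865-156200906, minus strand: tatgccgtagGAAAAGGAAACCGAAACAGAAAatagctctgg
Ifit1, chr19:34640775-34640823, plus strand: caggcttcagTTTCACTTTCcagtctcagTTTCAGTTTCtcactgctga
Bst2, chr8:71537577-71537612, minus strand: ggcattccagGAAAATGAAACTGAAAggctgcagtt
Rsad2, chr12:26456553-26456582, minus strand: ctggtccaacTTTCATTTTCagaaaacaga
Ifit3, first core, chr19:34583365-34583390, plus strand: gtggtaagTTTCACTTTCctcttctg
Ifit3, second core, chr19:34583399-34583424, plus strand: taagtctgTTTCAGTTTCtactttcc

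*Isg15* held 3 overlapping cores, *Ifit1* and *Ifit3* held 2 separate ones each, *Bst2* held 2 that overlap and *Rsad2* held 1. The first base of the cores lay 66 to 156 bases upstream of the start site listed in the table. For *Ifit3* that start site lies inside the annotated span of the gene, which also has start sites further upstream. The gamma-activated sequence, TTCNNNGAA, occurred for *Ifit2* and *Bst2*, against 9.55% of genes, and in *Bst2* it ran into the first response element core. No match of either motif was present in the windows of *Oasl2* and *Irf9*. A match describes the letters of a window and does not show that a factor bound there.

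Gene counts summed to 13697267 to 27462358 per RNA library and 7609932 to 13233565 per footprint library. Levels are given in CPM, the counts of a gene per 1000000 gene counts of its library after TMM scaling, with the SD over the 3 replicates of a group. *Mael* itself fell from 173 ± 39.9 CPM of RNA in *Mael*+/- to 0.0573 ± 0.0513 in *Mael*-/- testes, and from 102 ± 30.3 to 0.277 ± 0.479 CPM in footprints. Sertoli markers (1986 to 2400 CPM of RNA, summed over 9 genes, with *Amhr2* highest) and spermatogonial markers (1029 to 1226 CPM over 8 genes, with *Uchl1* highest) were abundant in every library. Markers of lymphocytes and plasmacytoid dendritic cells summed to 3.44 to 5.09 CPM over 10 genes, with *Cd4* highest, and 4 globin genes of red blood cells, *Hba-a1*, *Hba-a2*, *Hbb-bs* and *Hbb-bt*, were listed at 0 in all libraries. The first *Mael*+/- extract stood apart. Its 12 pachytene spermatocyte markers, with *Hspa2* highest, summed to 1039 CPM of RNA, against 393 and 411 CPM in the other *Mael*+/- replicates and 342 to 398 CPM in *Mael*-/-. Its footprint library held 1319 CPM of them, against 394 to 489 CPM in the other 5.

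All 9 members were detected in both assays, over a wide range. Per kilobase of merged exons, *Bst2* stood highest in RNA, at 24.3 ± 2.7 CPM per kb over all 6 RNA libraries, above 79.5% of the 17625 genes with RNA counts. *Irf9* followed at 7.38 ± 0.57 and *Oasl2* at 5.23 ± 0.88 CPM per kb, and the ranges of these neighbours overlapped. *Usp18* at 1.87 ± 0.52 and *Ifit2* at 0.891 ± 0.127 CPM per kb did not overlap each other or a neighbour. The 4 lowest members were *Ifit3*, *Rsad2*, *Isg15* and *Ifit1*, with means of 0.425, 0.399, 0.361 and 0.181 CPM per kb, and the ranges of each of these overlapped the next. The 3 members highest in RNA thus encode a tether of budding virus, the DNA-binding subunit of the interferon-activated complex and an oligoadenylate synthetase relative. RNA of the Ifit genes was low or at the edge of detection.

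Footprints per kilobase of coding sequence gave nearly the same order. *Bst2* held 80.0 ± 11.2 CPM per kb, above 88.3% of 17326 genes with footprints, *Irf9* 21.1 ± 2.1 and *Oasl2* 15.2 ± 1.7, with no overlap between these 3. *Usp18* held 4.13 ± 1.03 CPM per kb and *Isg15* 2.80 ± 0.74, and their ranges overlapped. *Isg15* thus came before *Ifit2* (1.59 ± 0.28), *Rsad2* (0.692 ± 0.281), *Ifit3* (0.314 ± 0.172) and *Ifit1* (0.284 ± 0.197), having come after *Ifit2*, *Ifit3* and *Rsad2* in RNA, though its range and that of *Ifit2* overlapped.

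**Figure D1:**
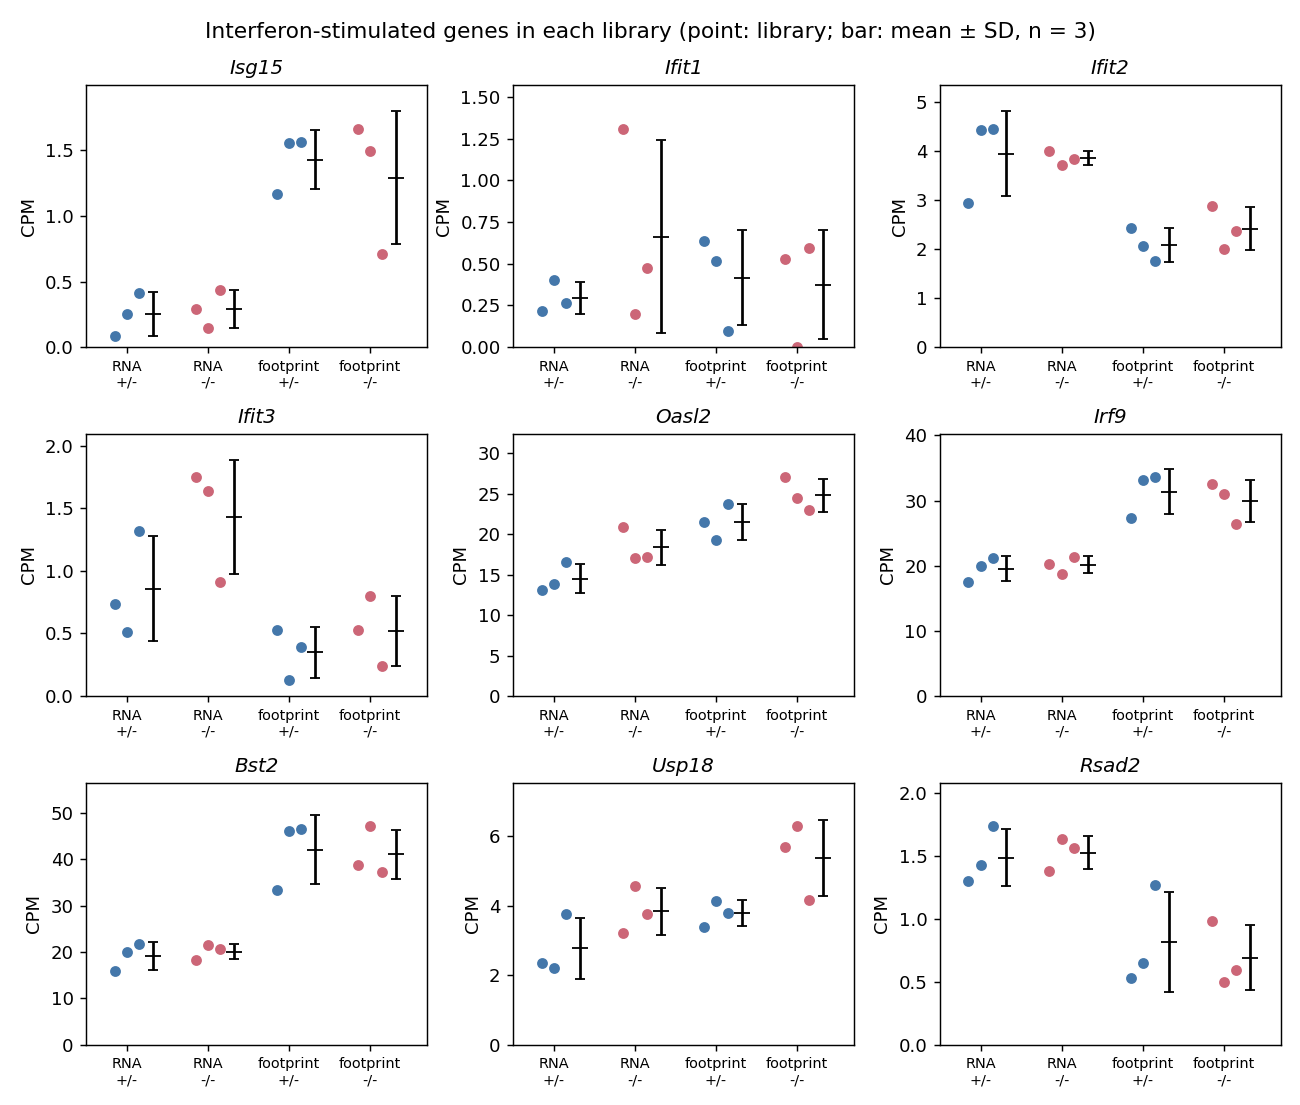
CPM of each interferon-stimulated gene (y axis, from 0, with its own scale per panel) by assay and genotype. Points are single libraries in replicate order, blue for Mael+/- and red for Mael-/-, and black bars give the mean ± SD of 3. In RNA the genotypes are apart only for Oasl2 (highest Mael+/- 16.6, lowest Mael-/- 17.0 CPM), and in footprints only for Usp18 (4.14 and 4.15 CPM).

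Between genotypes, none of the members passed the test in RNA. Of the 9, 8 had enough counts to be tested, all but *Isg15*, and 0 were called at an adjusted p of 0.05 in edgeR's quasi-likelihood test, where 0.116% of the 14685 genes tested were called. *Oasl2* alone had an unadjusted p under 0.05, as 5.4% of all genes tested had. The log2 fold change of *Mael*-/- over *Mael*+/- was above 0 for 7 of the 8, against 49.6% of all genes tested. Its median was 0.20, against -0.00 for all genes. The count above 0 rested in part on the extract that stood apart, since without the first *Mael*+/- RNA library 4 of the 8 were above 0, with a median of 0.12. The median was 0.30 without the third *Mael*+/- library, where 8 of 8 were above 0, and 0.05 without the third *Mael*-/- library, where 5 of 7 were.

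*Oasl2* came nearest to a difference. It belongs to the oligoadenylate synthetase family, whose classical members make the messenger that activates RNase L, and its protein carries ubiquitin-like domains. Its RNA was 13.1, 13.9 and 16.6 CPM in *Mael*+/- replicates 1 to 3, and 20.9, 17.0 and 17.2 CPM in *Mael*-/-. All the *Mael*-/- libraries were thus above all the *Mael*+/- libraries, as for 5.23% of genes tested, while for 5.03% all were below. The log2 fold change was 0.33 ± 0.14 (SE; 95% interval 0.02 to 0.65), a fold of 1.26, with an edgeR p of 0.0383 and an adjusted p of 0.905. In footprints *Oasl2* held 21.5, 19.3 and 23.8 CPM in *Mael*+/- and 27.0, 24.4 and 23.0 CPM in *Mael*-/-, and the groups overlapped, since the lowest *Mael*-/- library was under the highest *Mael*+/- one. The log2 fold change of footprints was 0.21 ± 0.13 (95% interval -0.08 to 0.49, edgeR adjusted p = 0.998).

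*Usp18*, the protease that removes Isg15 from its targets and blocks signalling at the interferon receptor, showed the larger fold. Its RNA was 2.34, 2.19 and 3.78 CPM in *Mael*+/- and 3.20, 4.56 and 3.76 CPM in *Mael*-/-, where the third *Mael*+/- library reached into the *Mael*-/- range. The log2 fold change in RNA was 0.47 ± 0.26 (95% interval -0.11 to 1.06, edgeR adjusted p = 0.972), and 0.77 without the third *Mael*+/- library. Its footprints were 3.39, 4.14 and 3.80 CPM in *Mael*+/- and 5.68, 6.29 and 4.15 CPM in *Mael*-/-. These groups did not overlap, as for 4.24% of genes tested (4.85% in the other direction), but the third *Mael*-/- library and the second *Mael*+/- library lay nearly at the same level. The log2 fold change in footprints was 0.52 ± 0.23 (95% interval -0.00 to 1.04), a fold of 1.43, with an edgeR p of 0.0495 and an adjusted p of 0.998. No other member had an unadjusted p under 0.05 in footprints, which 4.33% of all genes tested had.

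The most abundant members gave the narrowest intervals. *Bst2*, which tethers enveloped particles to the cell surface, had RNA of 15.9, 19.9 and 21.7 CPM in *Mael*+/- and 18.2, 21.4 and 20.6 CPM in *Mael*-/-. The first *Mael*+/- library was the lowest and the others were mixed. Its log2 fold change was 0.07 ± 0.14 in RNA (95% interval -0.25 to 0.38) and -0.03 ± 0.15 in footprints (95% interval -0.36 to 0.29). *Irf9* had RNA of 17.4, 20.0 and 21.2 CPM in *Mael*+/- and 20.3, 18.7 and 21.4 CPM in *Mael*-/-, and the groups overlapped in the same way. Its log2 fold change was 0.04 ± 0.12 in RNA (95% interval -0.23 to 0.31) and -0.06 ± 0.13 in footprints (95% interval -0.35 to 0.23). In RNA the upper end of the interval was a fold of 1.30 for *Bst2*, against 5.39 for *Ifit1*, the member with the widest interval among those tested.

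Among the Ifit genes the means and the counts behind them differed widely. *Ifit2* had 3.94 ± 0.86 CPM of RNA in *Mael*+/- and 3.85 ± 0.14 CPM in *Mael*-/-, with overlapping groups and a log2 fold change of -0.04 ± 0.22 (95% interval -0.52 to 0.44). Its footprints were 2.09 ± 0.34 CPM in *Mael*+/- and 2.41 ± 0.44 CPM in *Mael*-/- (log2 fold change 0.22 ± 0.28, 95% interval -0.41 to 0.85). *Ifit1* rested on 4 to 18 RNA counts per library. Its RNA was 0.217, 0.402 and 0.264 CPM in *Mael*+/- and 1.31, 0.198 and 0.474 CPM in *Mael*-/-, so that the first *Mael*-/- library alone stood high and another *Mael*-/- library was the lowest of the 6. The log2 fold change of 1.01 ± 0.63 (95% interval -0.40 to 2.43, edgeR adjusted p = 0.982) was the largest of the members tested, with the largest SE. It was 0.22 without the first *Mael*-/- library, below *Usp18* and *Ifit3* in the same fit, and 0.28 with limma voom and quality weights.

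*Ifit3* had RNA of 0.737, 0.512 and 1.32 CPM in *Mael*+/- and 1.75, 1.64 and 0.912 CPM in *Mael*-/-, from 14 to 35 counts, with a log2 fold change of 0.70 ± 0.41 (95% interval -0.21 to 1.61, edgeR adjusted p = 0.975), which was 1.17 without the third *Mael*+/- library and 0.43 without the second. The groups overlapped through the third replicates, which were high in *Mael*+/- and low in *Mael*-/-. *Ifit3* has a near copy, *Ifit3b*, with which 78.7% of the 30-base windows of its coding sequence and 41.1% of the 75-base windows of its mRNA are shared, so the split of reads between them depends on counting rules that are not given in the sources used here. The sum of both genes was 1.18 ± 0.53 CPM of RNA in *Mael*+/- and 1.83 ± 0.52 CPM in *Mael*-/-, with overlapping groups. *Ifit1* shares 18.8% of its coding windows with *Ifit1bl1* and *Ifit1bl2*, and *Isg15* shares 17.1% with another annotated gene, whereas *Ifit2*, *Oasl2*, *Bst2*, *Usp18* and *Rsad2* share none.

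*Rsad2* encodes viperin, which makes a chain-terminating nucleotide. Its RNA ranged over 1.30 to 1.74 CPM in *Mael*+/- and 1.38 to 1.64 CPM in *Mael*-/-, with *Mael*-/- inside the *Mael*+/- range and a log2 fold change of 0.04 ± 0.25 (95% interval -0.52 to 0.61). *Isg15*, the ubiquitin-like protein that is attached to new proteins, held 2, 7 and 11 RNA counts in *Mael*+/- and 4, 3 and 12 in *Mael*-/-, or 0.253 ± 0.164 and 0.292 ± 0.144 CPM. Its footprints were 1.17, 1.55 and 1.56 CPM in *Mael*+/- and 1.67, 1.497 and 0.712 CPM in *Mael*-/-, which spanned the *Mael*+/- values on both sides (log2 fold change -0.10 ± 0.38, 95% interval -0.92 to 0.73).

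In footprints 6 of the 9 members could be tested, all but *Ifit1*, *Ifit3* and *Rsad2*, which had 0 to 13 counts per library. Of these 6, 0 were called, where 0.0593% of 13500 genes were, and 3 had a log2 fold change above 0 (median 0.09), against 47.5% of all genes tested. Without the third *Mael*-/- library 6 of 6 were above 0, with a median of 0.20, and without the first *Mael*+/- library 3 of 6, with a median of 0.023. *Ifit1* had 0 footprint counts in the second *Mael*-/- library, where 3 counts would have been 0.299 CPM, so a level under this was not detectable at this depth.

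**Figure D2:**
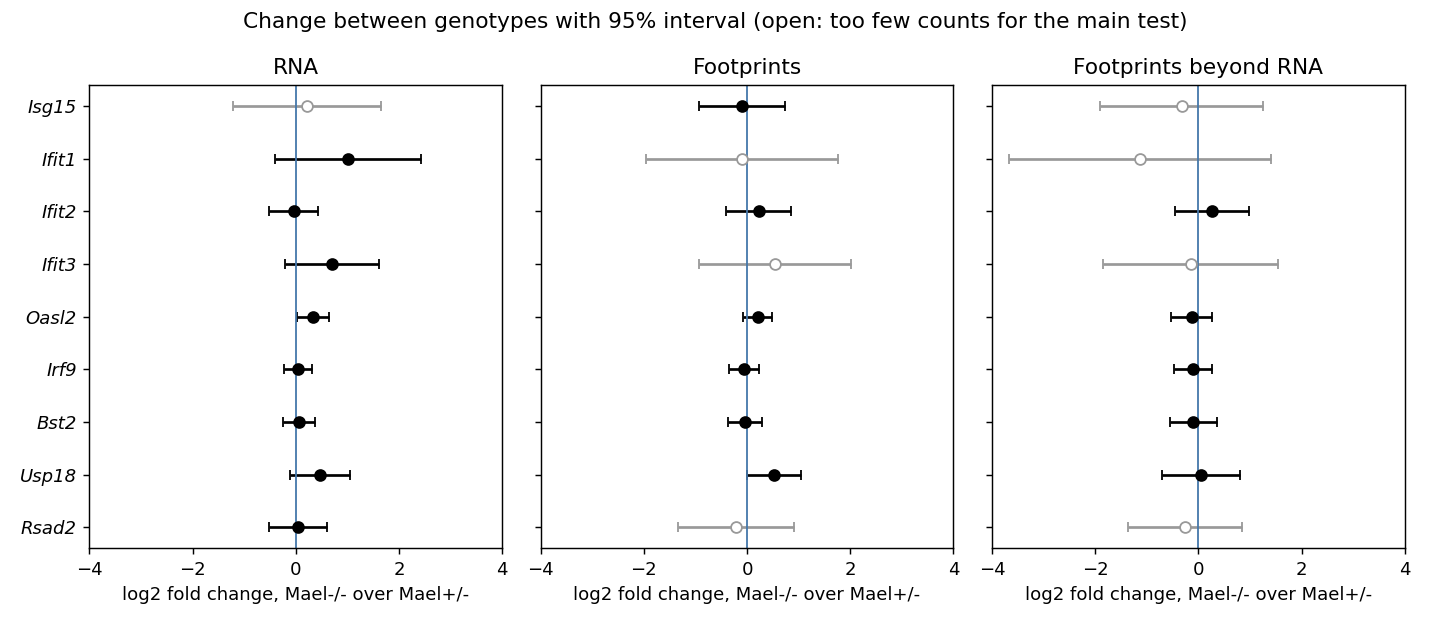
Log2 fold change of Mael-/- over Mael+/- (x axis) for each member (y axis) in RNA, in footprints and in footprints beyond RNA, with 95% intervals. Open grey points had too few counts for the filter and come from the fit without it. Intervals for footprints beyond RNA come from fits without the extract block. The intervals are narrowest for Irf9, Bst2 and Oasl2, and the interval that stays above 0 is that of Oasl2 in RNA (0.02 to 0.65).

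Translation efficiency, the change of footprints beyond that of RNA over all 12 libraries, was testable for 5 members, *Ifit2*, *Oasl2*, *Irf9*, *Bst2* and *Usp18*. Of these 0 were called, where 0% of 13448 genes were, with 0.394% of genes and 0 of the 5 members at an unadjusted p under 0.05 in edgeR. A block for each extract takes up what its RNA and footprints share. With it, 2.07% of genes and 0 of the 5 members were under 0.05, and 0 genes were called. The SE of the members ran from 0.12 to 0.32, against 0.17 to 0.35 without the block. Both shares were below what a threshold of 0.05 gives where nothing differs. Both fits were thus conservative, the one without the block more so, and the lack of calls is weak evidence of no change. In the fit without the block, the log2 changes ran from -0.13 ± 0.19 for *Oasl2* to 0.27 ± 0.33 for *Ifit2*, with intervals of -0.53 to 0.27 and -0.45 to 0.98. Of the 5, 2 lay above 0, against 49.2% of all genes tested. The median was -0.10, and without the first *Mael*+/- RNA library it was 0.02. Groups of footprint to RNA ratios overlapped for all 5, while 2.71% of genes tested were without overlap upward and 3.58% downward.

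The ratio of footprints to RNA differed widely between members. Over all libraries *Bst2* had 2.09 footprint CPM per RNA CPM, and its 6 extracts ran from 1.81 to 2.32. *Irf9* had 1.55 (1.23 to 1.66) and *Oasl2* 1.47 (1.29 to 1.64), and per length these 3 stood at 1.56, 1.38 and 1.45 times the median of 13396 genes. *Ifit2* had 0.583 (0.394 to 0.828) and *Rsad2* 0.513 (0.305 to 0.730), which per length were 0.865 and 0.855 times the median gene. In counting intervals, which cover counting error only and are exact binomial at 95%, the last 2 include the median gene (0.711 to 1.05 and 0.607 to 1.18 times) and the first 3 do not.

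*Isg15* and *Ifit3* lay at the ends of this range. *Isg15*, with 82 footprint counts and 39 RNA counts in all, had a ratio of 4.92, or 3.67 times the median gene per length (2.48 to 5.52), above 95.7% of genes. Its ratio was above 1 in each of the 6 extracts, from 1.63 to 13.5. Another annotated gene shares 17.1% of the 30-base coding windows of *Isg15* and 0% of its 75-base mRNA windows. How reads from the shared stretch bear on this ratio was not tested. *Ifit3*, with 27 and 148 counts, had a ratio of 0.427, or 0.397 times the median gene (0.253 to 0.602), above 3.53% of genes. Its value is also the one most exposed to how reads shared with *Ifit3b* were assigned, since a larger part of its coding sequence than of its mRNA is shared. The merged exons of *Isg15* and *Bst2* are the shortest of the members, at 756 and 808 bases, and MNase footprints and RNA were counted over different regions, so a ratio compares genes only within this scale.

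**Figure D3:**
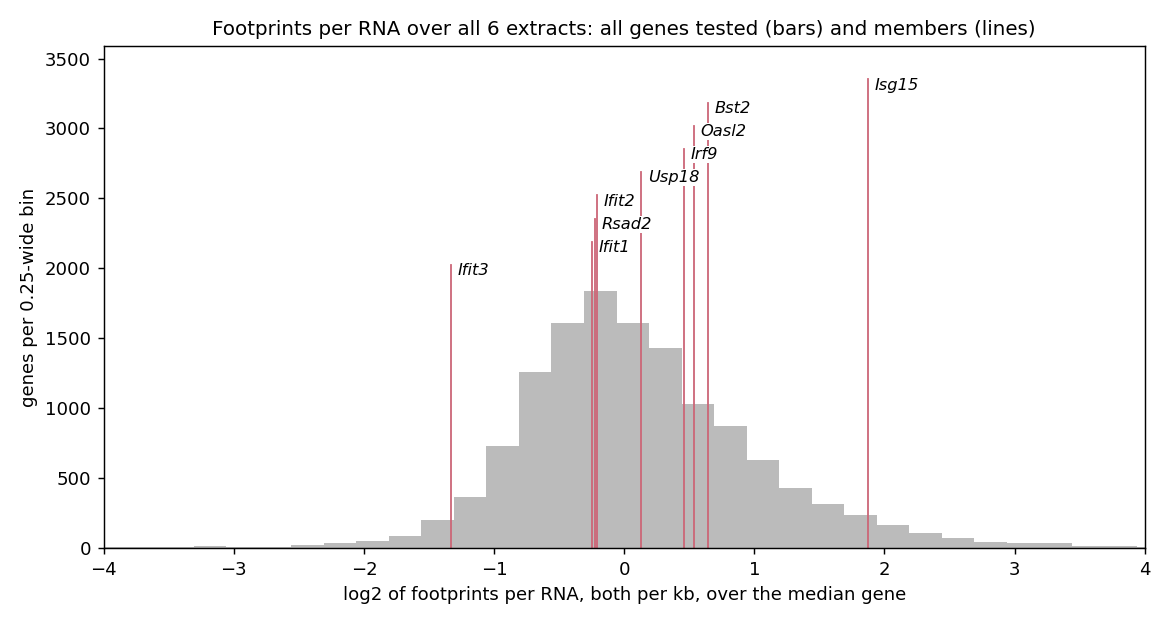
Number of genes (y axis, grey bars) by log2 of footprints per RNA, both per kb, relative to the median gene at 0 (x axis), for 13396 genes over the 6 extracts pooled. Red lines mark the members at heights chosen for legibility. Isg15 lies in the upper tail (3.67 times the median gene) and Ifit3 in the lower tail (0.397 times), with the other members between.

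Libraries of one group differed among themselves, and the members did so to unequal degrees. The fitted coefficient of variation between RNA replicates was 11.9% for *Irf9*, 13.3% for *Bst2* and 13.3% for *Oasl2*, close to the median gene at 12.1%, and 22.7% for *Usp18*, 30.4% for *Ifit3* and 39.1% for *Ifit1*, above 87.6%, 96.8% and 98.8% of genes. Summed over the 9 members, RNA was 54.1, 63.0 and 71.5 CPM in *Mael*+/- and 71.3, 69.0 and 70.2 CPM in *Mael*-/-. The SD was thus 1.14 CPM in *Mael*-/- and 8.70 CPM in *Mael*+/-, and the third *Mael*+/- library was above all of them. The sum in footprints was 91.0, 108 and 113 CPM in *Mael*+/- and 111, 114 and 95.3 CPM in *Mael*-/-, where both groups covered the same range. Both sums rest mainly on *Bst2*, *Irf9* and *Oasl2*. Over the pooled libraries these held 19.8, 19.9 and 16.1 CPM of RNA, and 41.4, 30.8 and 23.6 CPM of footprints.

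Markers of several somatic cell types also had log2 fold changes above 0 in RNA, with the highest list median for macrophages. Their sum over 10 genes, of which *Mrc1* was highest, was 215, 199 and 333 CPM of RNA in *Mael*+/- and 311, 314 and 318 CPM in *Mael*-/-, so that the third *Mael*+/- library was again the highest. All 10 had a log2 fold change above 0 in RNA (median 0.34) and in footprints (median 0.24), and 0 were called in either. *Cdh5*-led endothelial markers (7 of 7 above 0 in RNA, median 0.20) and *Acta2*-led myoid markers (5 of 5, median 0.20) also lay above 0. In footprints these were 6 of 7 (median 0.07) and 5 of 5 (median 0.24). Leydig markers, led by *Hsd3b1*, lay above 0 in RNA in 4 of 7. Other lists were mixed in RNA, with 5 of 9 Sertoli markers (median 0.0002), 3 of 8 spermatogonial markers (median -0.04) and 2 of 4 testable lymphocyte markers (median 0.09) above 0. All 10 testable pachytene markers lay below 0 in RNA (median -0.89), with the first *Mael*+/- library far above the rest, as given above. The part of these cell types in the values of the members was not tested, and in whole testes fewer cells of a type and less RNA per cell cannot be told apart.

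Across the 12 libraries, with log2 CPM centred within each assay, the members did not follow 1 common pattern. Of the 36 pairs, 28 had a Pearson r above 0, with a median of 0.25, a lowest value of -0.49 and a highest of 0.88, for *Isg15* with *Irf9*. Libraries of the same extract share their tissue, and several members rest on few counts, so these values describe the libraries and carry no test. Without the first *Mael*+/- extract, 23 of the 36 pairs were above 0, with a median of 0.060 and a lowest value of -0.76, for *Ifit1* with *Bst2*. The mean of the members had about the same r with the sums of several marker lists, 0.58 with endothelial, 0.57 with macrophage, 0.51 with peritubular myoid and 0.49 with lymphocyte markers, and without that extract 0.37, 0.48, 0.60 and 0.58. Its r was -0.48 with the pachytene sum, and 0.092 without that extract. Single members differed in their r with the macrophage sum. It was -0.16 for *Ifit1*, 0.11 for *Ifit2*, 0.27 for *Irf9*, 0.28 for *Bst2* and 0.33 for *Isg15*. For *Rsad2*, *Ifit3*, *Usp18* and *Oasl2* it was 0.55, 0.63, 0.63 and 0.82. Without the extract these were, in the same order, -0.19, -0.057, -0.030, -0.13, 0.085, 0.46, 0.70, 0.51 and 0.78. Over the 12 libraries the highest r of a member with any list was that of *Bst2* with the Sertoli sum, 0.87, and 0.67 without the extract. The genes most like the mean of the members, among 11232 searched over the 12 libraries, were *Txlnb* (r = 0.93), *Mut* (0.91), *Rab30* (0.88), *Tom1l2* (0.87) and *Parp14* (0.87). *Parp14*, an ADP-ribosyltransferase, is itself known to be induced by interferon. *Txlnb*, *Mut*, *Rab30* and *Tom1l2*, which ranked above it, were not among the interferon pathway genes looked at. The ranking was not repeated without the first *Mael*+/- extract and carries no test.

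**Figure D4:**
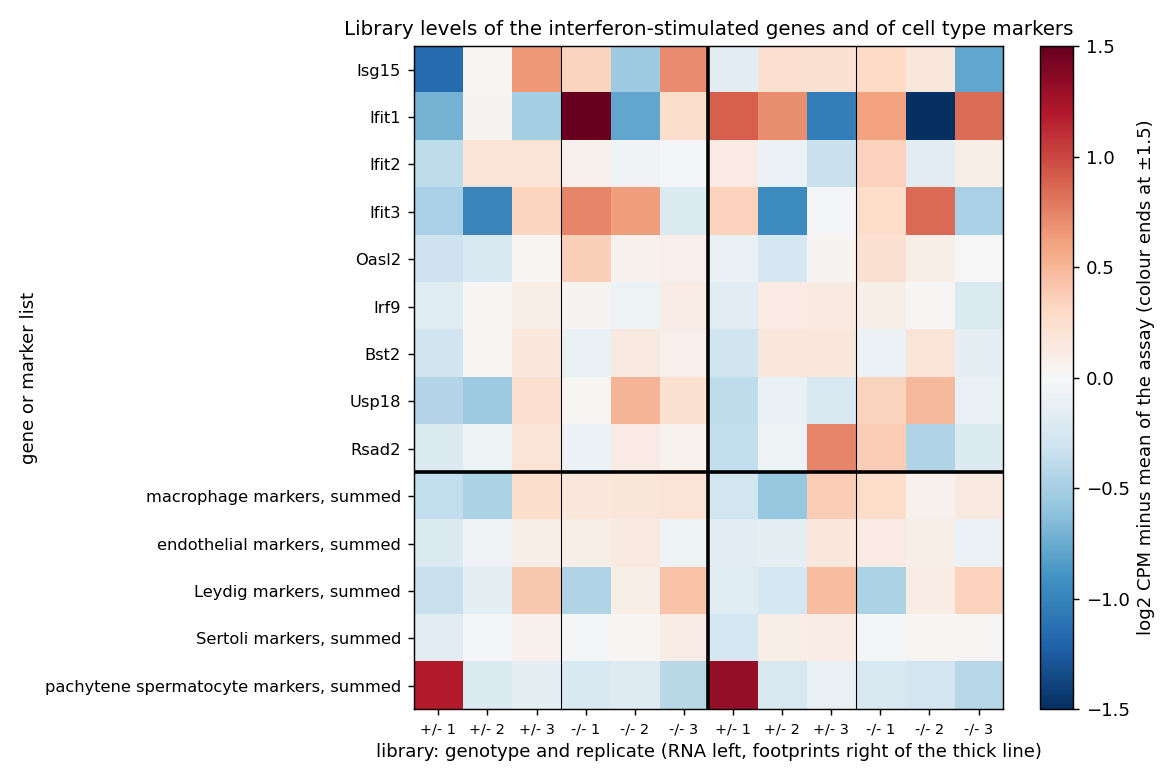
Log2 CPM minus the mean of the assay (colour) for each member and for the summed markers of 5 cell types (rows) in the 12 libraries (columns, RNA to the left and footprints to the right of the thick line). The first Mael+/- extract is high in pachytene markers (1039 CPM of RNA) and holds the lowest RNA sum of the members (54.1 CPM), and the third Mael+/- library is high in macrophage markers (333 CPM).

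Upstream of the members, the interferon genes looked at were nearly absent. Of these 11 genes, 6 had 0 counts in all 12 libraries. The rest had at most 3 counts in any library, 17 RNA counts and 4 footprint counts in all. Of the interferon alpha genes, only *Ifna1*, *Ifna2*, *Ifna4* and *Ifna5* were among those looked at. *Ifng* had 1, 1 and 1 RNA counts in *Mael*+/- and 1, 2 and 3 in *Mael*-/-, and 0 footprint counts. Receptors were well expressed. *Ifnar1*, which with *Ifnar2* binds type I interferon, had 160.5 ± 7.0 CPM of RNA in *Mael*+/- and 160.3 ± 5.2 in *Mael*-/-, and *Ifngr1*, for interferon gamma, had 50.3 ± 2.5 and 57.4 ± 2.5 CPM. In RNA the groups of *Ifngr1* did not overlap, as for 5.23% of genes tested in this direction. Its log2 fold change was 0.19 ± 0.09 (edgeR adjusted p = 0.937). In footprints its groups overlapped, at -0.04 ± 0.13. Of the 6 receptor genes 0 were called in RNA or footprints.

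The 12 kinases and transcription factors of the pathway were all testable and 0 were called in any contrast. *Jak1* had 319 ± 17 CPM of RNA in *Mael*+/- and 319 ± 28 in *Mael*-/-. *Stat2*, which joins Irf9, had 21.3 ± 1.6 and 22.4 ± 1.6 CPM of RNA. *Irf2*, a factor that competes at response elements, had 3.86 CPM of RNA and 33.2 CPM of footprints over the pooled libraries, per length 20.8 times the median gene and above 99.9% of genes. *Irf2* was picked out after its values were seen. RNA and footprints were counted over different regions, by rules not given in the sources used here. How far counting bears on this ratio was not tested.

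Of 100 further pathway genes, 99 were in the table, 90 had counts, and 75 in RNA and 71 in footprints could be tested. In RNA 45 of the 75 lay above 0 (median log2 fold change 0.05, 49.6% of all genes above 0), in footprints 43 of 71, and 0 were called in any contrast. The 6 with the largest changes in RNA among those with a mean of 20 counts or more were *Oas1b*, *Ifi204*, *Ifi27l2a*, *Rtp4*, *Iigp1* and *Irf7*. *Oas1b*, of the family of *Oasl2*, had 0.778 ± 0.036 CPM of RNA in *Mael*+/- and 1.14 ± 0.30 in *Mael*-/- (log2 fold change 0.58 ± 0.30, edgeR adjusted p = 0.948). Its groups did not overlap in either assay, with 55 footprint counts in all. Groups without overlap, higher in *Mael*-/-, made up 5.23% of all genes tested in RNA and 4.24% in footprints. A choice by the size of the RNA change favours such genes. *Ifi27l2a*, a mitochondrial protein induced by interferon, had 2.23 ± 0.78 and 3.28 ± 0.32 CPM of RNA (0.54 ± 0.27, edgeR adjusted p = 0.939), with overlap in RNA and none in footprints (2.04 ± 0.60 and 3.48 ± 0.71 CPM).

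*Ifi204* and *Rtp4* had log2 fold changes of 0.55 ± 0.31 and 0.47 ± 0.29 in RNA, with overlapping groups, and *Irf7*, which amplifies interferon production, had 0.36 ± 0.25. *Iigp1*, a GTPase induced mainly by interferon gamma, went the other way at -0.47 ± 0.54. For this gene, the third *Mael*+/- library held 5.82 CPM of RNA, against 0.914 to 2.53 CPM in the other 5, and 9.27 CPM of footprints, against 1.16 to 4.27. Without that library its log2 fold change in RNA was 0.48. The third *Mael*+/- replicate was also the highest of its group in the RNA of *Isg15*, *Ifit2*, *Ifit3*, *Oasl2*, *Irf9*, *Bst2*, *Usp18* and *Rsad2*, that is of all members but *Ifit1*. For *Ifit2* the margin was small (4.46 against 4.43 CPM). In footprints it was highest for *Isg15*, *Oasl2*, *Irf9*, *Bst2* and *Rsad2*, but not for *Ifit3* and *Usp18*, and lowest for *Ifit1* and *Ifit2*. The share of all genes highest in this replicate was not counted.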

How the data were processed

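The authors removed linkers and ribosomal reads (Bowtie 1.2.2), aligned the rest to mm10 with STAR 2.6.0c and counted with featureCounts (Subread 1.6.4), RNA over whole mRNAs and MNase footprints over coding sequence. Their deposited table holds raw counts per gene. The annotation, the strand setting, the handling of ambiguous reads and whether duplicates were collapsed are not given in the sources used here, so p-values, intervals and floors describe the deposited counts. Deposited DESeq2 1.24.0 result tables, which hold log2 fold changes, standard errors and p-values, were not used.

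Groups follow the labels. Genotypes were compared with edgeR 4.0.16 (R 4.3.3) by quasi-likelihood tests. TMM factors were set per assay, genes were kept by filterByExpr, and p-values were adjusted over all genes kept (Benjamini-Hochberg) and called at 0.05. Translation efficiency was the interaction of genotype and assay. The steps were checked on simulated counts, with the same variation for all genes and each library drawn independently. That check does not cover the more variable members, or what RNA and footprints of an extract share. Per-kilobase lengths were merged exon and merged coding lengths of RefSeq. Windows shared between genes were found in GENCODE transcripts. RNA and footprints of the same extract deviated together (correlations of 0.804, 0.667 and 0.726 in *Mael*+/- and 0.252, 0.276 and 0.253 in *Mael*-/- over 11235 genes), which pairs them.

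All 9 members are described. Beside them a rule named *Mael*, the 5 genes with the most similar pattern, the 6 pathway genes with the largest RNA change at a mean of 20 counts or more, and the highest or absent marker of each list. Genes of the ligands, receptors, kinases and transcription factors, *Oas2*, *Oas3*, *Mx1* and the genes at the ends of the footprint per RNA order fall outside it and were chosen after their values were seen. Members, lists and tests were chosen with earlier results of these data known. Alternatives were DESeq2 1.42.0, median-of-ratios factors, no filter, a mean of at least 50 counts, limma voom (3.58.1) with quality weights, a replicate block, and leaving out each library.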

Additional observations from a re-analysis of the deposited data

How the results depend on the processing

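No member was called under any of the alternatives that could test it, in any of the 3 contrasts. The number of genes called among all genes moved more. In RNA it was 17, and 66 with DESeq2, 36 with limma voom and quality weights, 4 with a mean of at least 50 counts, and 2 to 64 with 1 library left out (64 without the first *Mael*+/- library, 2 without the first *Mael*-/- library). In footprints it was 8, and 26 with DESeq2, 1 with a mean of at least 50 counts, and 2 to 17 with 1 library left out (17 without the first *Mael*+/- library). With the replicate number as a block, 50 genes were called in RNA and 23 in footprints. Between genotypes, replicates with the same number had correlations of 0.3, -0.03 and 0.2 in RNA, and 0.08, 0.29 and 0.06 in footprints. Replicates with unlike numbers spanned -0.444 to 0.418 in the RNA libraries. For the footprint libraries that span was -0.3 to 0.234. These values do not settle whether the number pairs samples across genotypes. The block changed no call of a member.

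Under the alternatives, 322 values for single genes kept their sign and 21 did not, and none of the genes concerned was called. With limma voom, *Irf9* was at -0.025 in RNA and *Usp18* at -0.0091 in translation efficiency. With 1 library left out, log2 fold changes in RNA ran from -0.032 to 0.11 for *Irf9*, -0.049 to 0.16 for *Bst2*, -0.038 to 0.17 for *Rsad2*, -0.21 to 0.055 for *Ifit2* and -0.90 to 0.48 for *Iigp1*. In footprints they ran from -0.18 to 0.049 for *Bst2*, -0.34 to 0.15 for *Isg15* and -0.15 to 0.018 for *Irf9*, and in translation efficiency from -0.24 to 0.19 for *Usp18* and -0.24 to 0.016 for *Bst2*. Without a change of sign, RNA values ran from 0.22 to 1.47 for *Ifit1*, 0.43 to 1.17 for *Ifit3*, 0.33 to 0.77 for *Usp18*, 0.34 to 0.71 for *Oas1b*, 0.33 to 0.92 for *Ifi204*, 0.40 to 0.87 for *Ifi27l2a*, 0.24 to 0.76 for *Rtp4* and 0.21 to 0.66 for *Irf7*, the highest without the third *Mael*+/- library for all but *Ifit1* and *Oas1b*. Values of *Ifit2* (0.062 to 0.36) and *Oasl2* (0.13 to 0.28) in footprints, and of *Ifit2* (0.10 to 0.44), *Oasl2* (-0.23 to -0.028) and *Irf9* (-0.20 to -0.025) in translation efficiency, also moved by over 1.5 times. The cause was not tested. *Isg15* in RNA and *Ifit1*, *Ifit3* and *Rsad2* in footprints are limited by depth, and a filter of 50 counts left 5 members in RNA and 3 in footprints.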

Other observations

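*Oas2*, a further oligoadenylate synthetase, had too few counts to pass the filter and was chosen after its values were seen. It held 6, 2 and 7 RNA counts in *Mael*+/- and 6, 6 and 11 in *Mael*-/-, and 3, 1 and 5 footprint counts in *Mael*+/- against 15, 7 and 9 in *Mael*-/-. In the fit without a filter its log2 fold change was 0.91 ± 0.59 in RNA (edgeR adjusted p = 0.951) and 1.54 ± 0.61 in footprints (edgeR adjusted p = 0.787). *Oas3*, of the same family, had 3, 5 and 9 RNA counts in *Mael*+/- and 1, 0 and 3 in *Mael*-/-, the opposite direction (-1.70 ± 0.97, edgeR adjusted p = 0.919). *Mx1*, a GTPase that blocks virus replication, held 1 to 8 RNA counts in *Mael*+/- and 3 to 10 in *Mael*-/-.

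After *Irf2*, the pathway genes with the most footprints per RNA were *Xaf1*, an inducer of cell death, at 5.25 times the median gene per length, *Sp100*, of nuclear bodies, at 5.19, *Iigp1* at 3.47, *Rtp4* at 3.25 and *Ube2l6*, the enzyme that carries Isg15 to its targets, at 3.13. These genes were also chosen after their values were seen. The lowest were *Trex1*, which degrades cytosolic DNA, at 0.482 times, *Gbp3* at 0.494 and *Ifngr2* at 0.498.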
